A study of Mus musculus with 20 samples.

Results

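The genes described here encode subunits of the Arp2/3 complex (Arpc1b, Arpc2, Arpc3, Arpc4, Arpc5, Actr2 and Actr3), the beta-thymosins Tmsb4x and Tmsb10, and profilin-1 (Pfn1). They were chosen by name with earlier results of these data known, so counts of members called are no test of the list. All their probes with a detection p-value under 0.01 on at least 5 of 20 arrays were used. Of 10 genes, 8 had a probe in the annotation used here, with 19 probes, and 15 of these passed the filter, beside 18683 of 45281 probes of the whole table. Arpc3 and Actr2 were not analysed here. RNA was taken from left ventricles of mice of the strain C57BL/6J, aged 12-15 weeks, 3 days after surgery and with the infarcted tissue left out, and each mouse gave 1 Illumina array. The groups were male MI (myocardial infarction by ligation of a coronary artery), male sham (the same day after sham surgery), female MI and female sham, with 5 mice each. All mice were of 1 strain and no transgene or drug is given in the labels. The series asks how gene expression after an infarct relates to the better survival of females.

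Actin filaments grow from monomers, and most monomers in a cell are held in reserve. Beta-thymosins bind monomers and keep them from polymerising, profilin hands monomers to the growing ends of filaments, and the Arp2/3 complex starts new filaments as branches on the sides of old ones. Branched networks drive the crawling and engulfing movements of leukocytes and fibroblasts, and thymosin beta-4, the product of Tmsb4x, has been studied in mouse hearts for a part in vessel growth and repair.

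The promoters of members that moved together after MI were read from RefSeq (build GRCm38.p6) as windows of 300 bases around a gene's start, on the gene's own strand. Windows were searched on both strands for GGGCGG, the core of a GC box. They were also searched for the CCAAT box, for TATAAA and for the CArG box, the motif bound by serum response factor. The 8 measured genes have 10 windows. GGGCGG lay in 9 windows of 7 genes, and in 35.7% of all 32851 windows. The windows of Tmsb10 overlap and share a match, so the 9 windows are not separate observations. The CCAAT box lay only in that of Arpc5 among the 8 genes (37.4% of all windows), and TATAAA in 0 of 10 (13.6%). The CArG box lay only in that of Arpc4 (1.63% of all windows), at its far end, 250 bases before the start. A match describes the letters and is no measured binding site. The windows printed are that of Arpc1b, whose 7 matches to GGGCGG are the most among the members, the window of Tmsb10 that reaches farthest into the gene, as the gene with the largest differences, and that of Arpc4 with its CArG box. Capitals mark GGGCGG in either orientation and the CArG box.
Arpc1b, chr5:145114006-145114305, plus strand: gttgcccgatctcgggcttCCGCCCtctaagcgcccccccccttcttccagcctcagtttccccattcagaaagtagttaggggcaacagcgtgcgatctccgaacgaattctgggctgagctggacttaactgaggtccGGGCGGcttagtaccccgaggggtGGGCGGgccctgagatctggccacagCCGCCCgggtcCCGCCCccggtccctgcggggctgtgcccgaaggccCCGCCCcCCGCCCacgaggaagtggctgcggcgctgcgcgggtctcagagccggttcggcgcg
Tmsb10, chr6:72958183-72958482, minus strand: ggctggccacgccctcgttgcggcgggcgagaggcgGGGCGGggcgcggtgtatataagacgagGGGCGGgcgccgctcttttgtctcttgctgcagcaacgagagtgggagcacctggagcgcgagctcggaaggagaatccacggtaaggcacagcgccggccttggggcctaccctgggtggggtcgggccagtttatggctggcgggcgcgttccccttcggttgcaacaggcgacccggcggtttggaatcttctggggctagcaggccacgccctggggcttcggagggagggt
Arpc4, chr6:113377863-113378162, plus strand: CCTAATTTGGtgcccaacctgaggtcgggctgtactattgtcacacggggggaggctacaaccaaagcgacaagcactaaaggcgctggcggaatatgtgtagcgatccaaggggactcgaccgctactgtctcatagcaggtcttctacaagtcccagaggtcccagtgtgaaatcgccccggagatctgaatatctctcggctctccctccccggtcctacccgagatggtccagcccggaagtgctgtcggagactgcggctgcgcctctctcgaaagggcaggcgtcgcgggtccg

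Before the results, 3 arrays need naming. Female MI 4, male sham 3 and female sham 2 were read from position F, at the end of their chips. There 577 kept probes (3.09%) were shifted down by over 1 log2 unit once group means were removed, and 0 at positions A to E. Among the members the shift at position F was -2.23 log2 units for Arpc2, -2.07 for Actr3, -0.86 for Tmsb4x and -0.47 for Pfn1 probe ILMN_2863965. It was 0.63, 0.60 and 0.57 for the 3 probes of Tmsb10. For the other 8 probes it lay between -0.18 and 0.40. Results are therefore given with all 20 arrays and with the 17 arrays outside position F. Across the series 34.6% to 40.6% of probes were detected per array, and sex-linked transcripts matched the labelled sex on 20 of 20 arrays. Males and females were hybridised on separate chips except on chip 2, where 2 female sham arrays sit beside 4 male arrays.

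**Figure D1:**
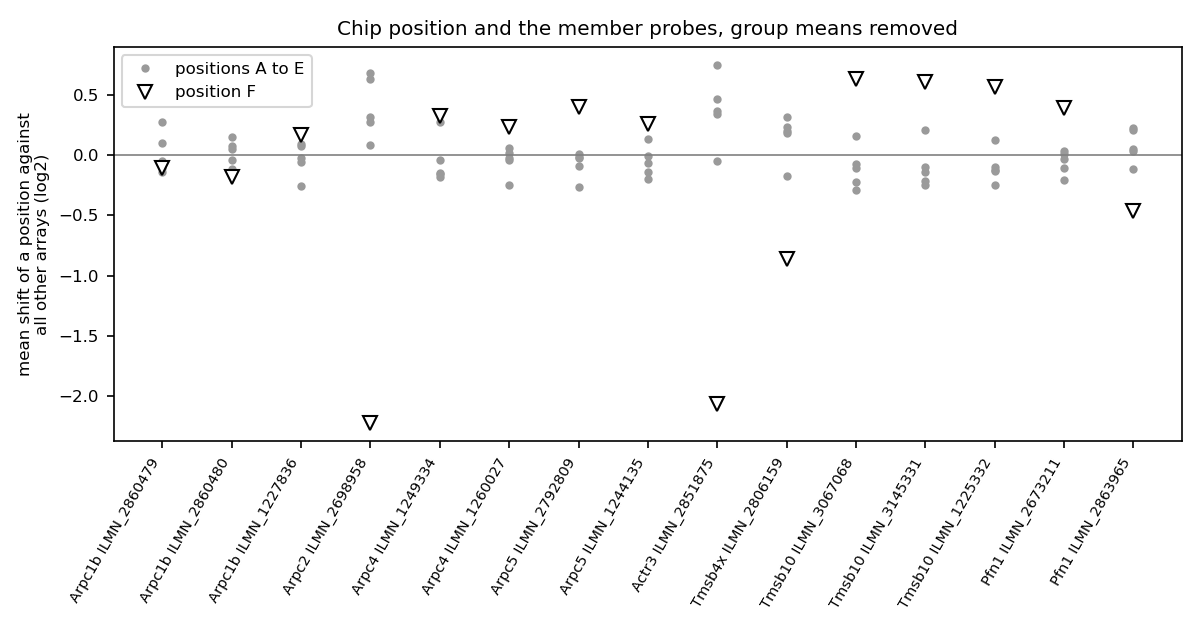
Mean shift of each chip position against all other arrays, in log2 units with group means removed, for the 15 member probes; each grey dot is 1 of positions A to E and each triangle is position F. Arpc2 (-2.23) and Actr3 (-2.07) lay far lower at position F, while the Tmsb10 probes lay 0.57 to 0.63 higher.

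After MI, transcripts of this machinery were higher in the ventricle outside the infarct in both sexes. In males 10 of 15 member probes rose after MI and 0 fell, beside 8.79% of all kept probes that rose and 7.73% that fell (limma, Benjamini-Hochberg adjusted p under 0.05). They belong to Arpc1b, Arpc4, Arpc5, Tmsb10 and Pfn1. In females 12 of 15 rose and 0 fell, beside 14.8% of all kept probes that rose and 15.6% that fell, and Tmsb4x joined these 5 genes. Without position F, 14 probes of all 8 genes rose in males (9.92% of all kept probes) and 15 in females (15.0%). With 75th percentile scaling in place of quantile normalisation and no position F, 11 probes of 6 genes rose in males and 13 probes of 7 genes in females. Of all kept probes, 1532 rose and 2733 fell in males in that setting, and 2487 rose and 2627 fell in females. The median log2 difference over the 15 probes was 0.89 in males and 0.88 in females, beside -0.04 and -0.06 over all kept probes. Without position F it was 0.77 in males and 0.78 in females. The tissue is bulk ventricle, so more RNA per cell and more cells of a kind that carries the RNA cannot be told apart.

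Every member probe had both MI means above both sham means. The order within each pair varied, with the female MI mean above the male MI mean for 8 of 15 probes and the female sham mean below the male sham mean for 11. None of these neighbours in the order (female MI and male MI, female sham and male sham) was called different. In males the MI arrays all lay above the sham arrays for 13 of 15 probes (8.78% of all kept probes), and for 14 without position F (10.8%). In females this held for 7 probes (7.32%), and for 10 without position F (11.8%).

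**Figure D2:**
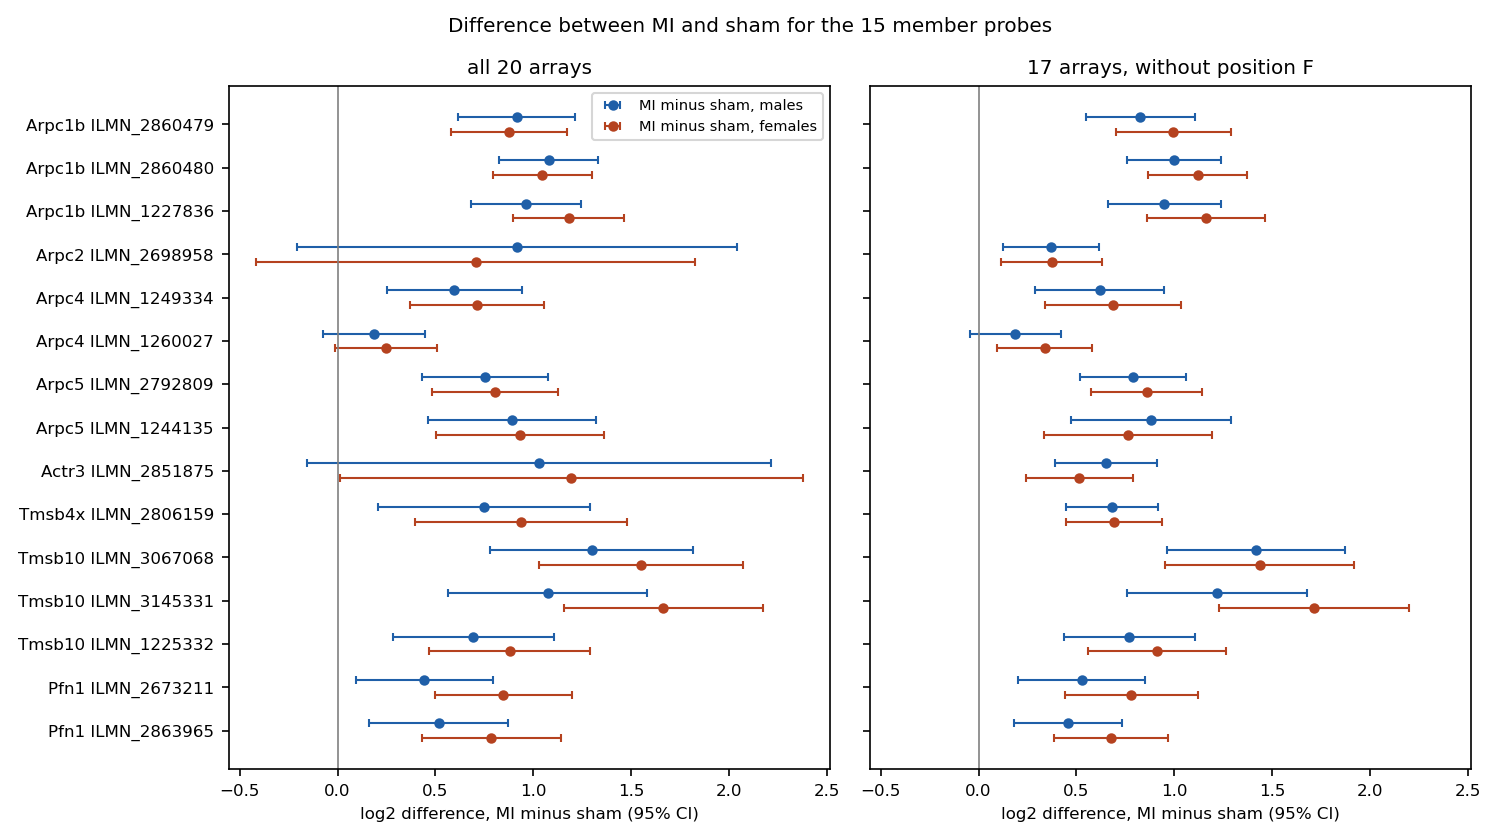
Log2 difference of MI minus sham with its 95% confidence interval for each of the 15 member probes, in males (blue) and females (red), from all 20 arrays on the left and from the 17 arrays outside position F on the right. All differences are above 0, and the wide intervals of Arpc2 and Actr3 narrow without position F.

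Tmsb10, which encodes the monomer-binding thymosin beta-10, had the largest differences among the members. Its probe ILMN_3067068 had normalised log2 levels of 10.98, 11.02, 10.92, 10.73 and 10.96 in male MI, against 9.18, 9.37, 10.10, 9.54 and 9.93 in male sham. In females the levels were 11.50, 11.20, 10.63, 11.90 and 10.33 in MI, against 9.38, 9.90, 9.93, 9.72 and 8.88 in sham. In both sexes every MI array lay above every sham array, and the MI arrays were closer together in males (SD 0.11) than in females (SD 0.64). Tmsb10 rose 2.46-fold in males (log2 1.30, SE 0.250, adjusted p = 0.00142) and 2.93-fold in females (log2 1.55, SE 0.250, adjusted p = 1.03e-04). The second probe, ILMN_3145331, ranged from 9.44 to 9.85 in male MI against 8.15 to 9.12 in male sham, and from 9.05 to 10.34 in female MI against 7.45 to 8.76 in female sham. It rose 2.10-fold in males (adjusted p = 0.00481) and 3.16-fold in females (adjusted p = 3.88e-05). The third probe, ILMN_1225332, was detected on 5 of 5 male MI and 4 of 5 male sham arrays, and on 5 of 5 female MI and 2 of 5 female sham arrays. It rose 1.62-fold in males (adjusted p = 0.0203) and 1.84-fold in females (adjusted p = 0.00209). Its male call ended without male MI 2 (adjusted p = 0.0539) or male sham 4 (adjusted p = 0.0531). Without position F the log2 differences of the 3 probes were 1.42, 1.22 and 0.77 in males and 1.43, 1.71 and 0.91 in females.

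Tmsb4x, an X-linked gene, encodes the main monomer-holding thymosin of most mammalian cells. Its probe had levels of 13.17, 13.03, 13.28, 12.85 and 13.11 in male MI, against 12.36, 12.33, 12.07, 12.54 and 12.40 in male sham. Female levels were 13.32, 13.27, 12.92, 12.60 and 13.25 in MI, against 12.43, 10.69, 12.74, 12.45 and 12.39 in sham. The MI arrays lay above the sham arrays in males, while in females the lowest MI array (12.60, position F) lay below the highest sham array (12.74) and the lowest sham array (10.69) is also in position F. With all arrays the difference was 0.75 in males (95% confidence interval 0.21 to 1.29, adjusted p = 0.0529), and Tmsb4x rose 1.91-fold in females (log2 0.94, adjusted p = 0.00946). Without position F it rose in both sexes, by log2 0.68 in males (adjusted p = 4.06e-04) and 0.69 in females (adjusted p = 2.49e-04), and its groups did not overlap in either sex. With the chip as a block and all arrays, the female difference was 0.55 (adjusted p = 0.148), and it was 0.66 (adjusted p = 0.00246) once position F was left out as well. Its highest level, 13.32, lay near the highest value on the scale, 13.99.

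Profilin-1 was measured by 2 probes. ILMN_2673211 had levels of 9.43, 9.89, 9.69, 9.68 and 9.44 in male MI, against 8.92, 9.16, 9.51, 9.06 and 9.27 in male sham. In female hearts the levels were 10.04, 9.84, 9.46, 10.21 and 9.19 in MI, against 8.89, 9.10, 9.11, 8.84 and 8.56 in sham. The female groups did not overlap, and in males 1 sham array (9.51, position F) lay within the MI range. Pfn1 rose 1.80-fold by this probe in females (log2 0.85, SE 0.169, adjusted p = 7.61e-04), while in males the difference was 0.44 (95% confidence interval 0.09 to 0.79, adjusted p = 0.0768) and 0.53 without position F (adjusted p = 0.0239, and 0.0579 with 75th percentile scaling). The second probe, ILMN_2863965, ranged from 9.03 to 9.30 in male MI against 8.41 to 8.83 in male sham, and from 8.65 to 9.31 in female MI against 7.52 to 8.77 in female sham. It rose 1.43-fold in males (log2 0.52, adjusted p = 0.0415) and 1.72-fold in females (log2 0.78, adjusted p = 0.00156). Leaving out any 1 of 11 arrays (all 10 male arrays and female sham 1) ended the male call, with adjusted p of up to 0.103. Without position F it rose by log2 0.46 in males (adjusted p = 0.0221, and 0.0662 with 75th percentile scaling) and 0.67 in females.

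**Figure D3:**
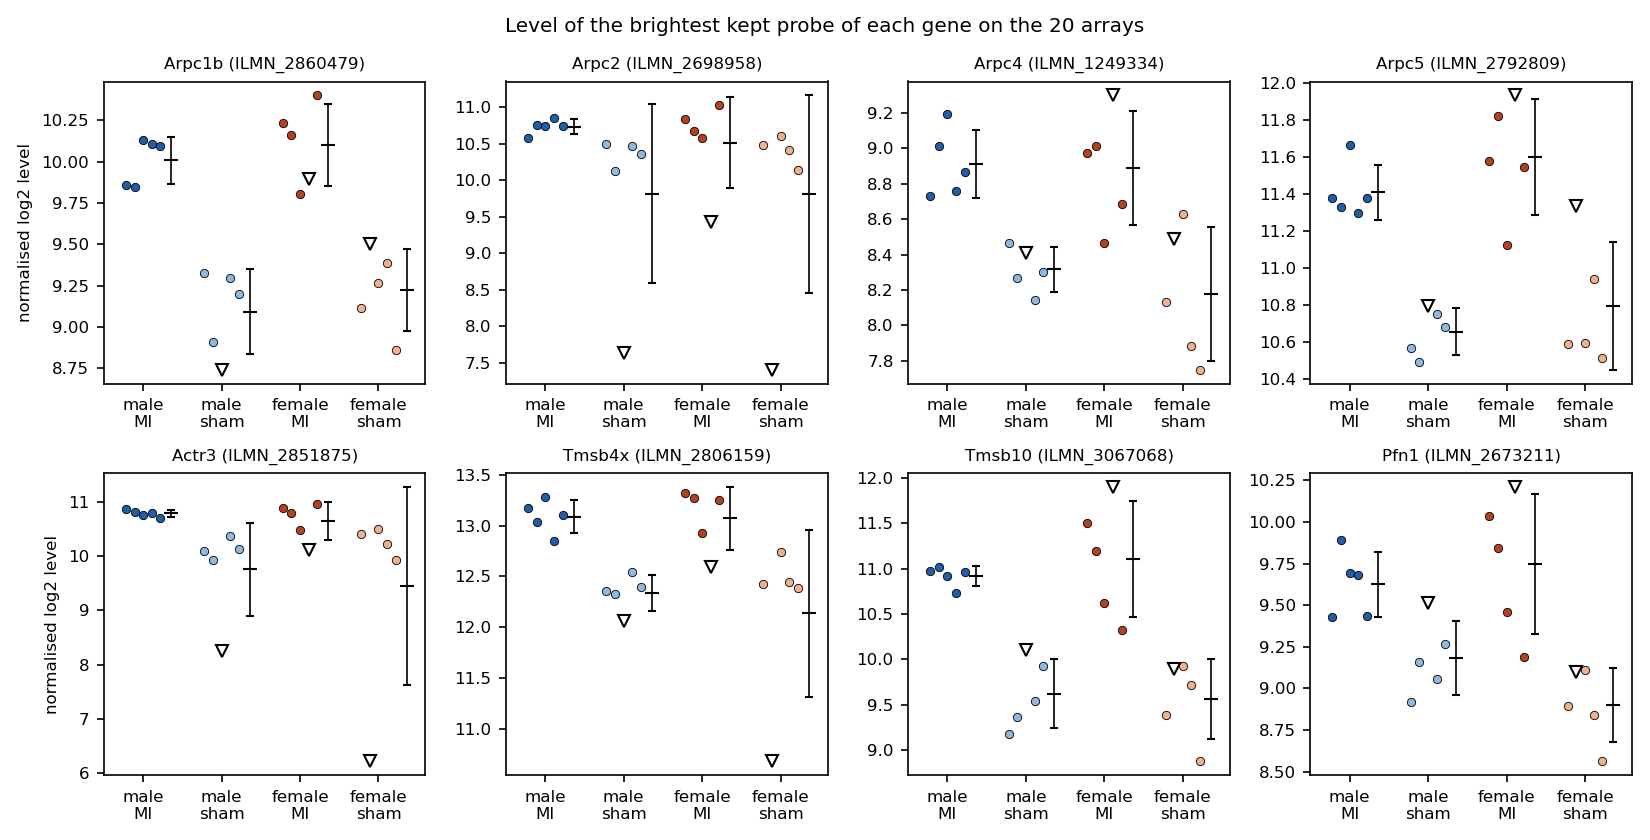
Normalised log2 level of the brightest kept probe of each of the 8 measured genes on the 20 arrays, by group, with MI left of sham in each sex; each point is 1 mouse, open triangles are position F arrays, and bars show the mean and SD of 5 mice. For Tmsb10 and Arpc1b every MI array lies above every sham array of its sex. The position F arrays lie far below the rest of their groups for Arpc2, and for Actr3 in the sham groups.

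Arpc1b encodes the form of the ARPC1 subunit that predominates in blood cells, and its 3 probes all rose in both sexes. ILMN_2860479 had levels of 9.86, 9.85, 10.13, 10.11 and 10.09 in male MI, against 9.32, 8.91, 8.74, 9.29 and 9.20 in male sham. Its female levels were 10.23, 10.16, 9.80, 9.90 and 10.40 in MI, against 9.11, 9.50, 9.26, 9.39 and 8.86 in sham. No sham array reached an MI array of its sex. Arpc1b rose 1.88-fold by this probe in males (log2 0.91, SE 0.143, adjusted p = 2.36e-04) and 1.83-fold in females (log2 0.87, SE 0.143, adjusted p = 1.16e-04). By ILMN_2860480 it rose 2.11-fold in males (adjusted p = 1.25e-05) and 2.06-fold in females (adjusted p = 3.41e-06). By ILMN_1227836 it rose 1.95-fold in males (adjusted p = 8.81e-05) and 2.26-fold in females (adjusted p = 3.24e-06). Without position F the log2 differences of the 3 probes were 0.83, 1.00 and 0.95 in males and 0.99, 1.12 and 1.16 in females. Its GGGCGG-rich window is shown above. Arpc1a, which encodes the alternative ARPC1 subunit, was not called in either sex (log2 0.05 in males, adjusted p = 0.945, and 0.29 in females, adjusted p = 0.589). Its probe shifted by -1.24 at position F, and without those arrays its differences were -0.03 and -0.08.

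Arpc5, which encodes the smallest subunit of the complex, was higher after MI by both kept probes. ILMN_2792809 had levels of 11.38, 11.33, 11.66, 11.29 and 11.38 in male MI, against 10.57, 10.49, 10.79, 10.75 and 10.68 in male sham. In females it had 11.58, 11.82, 11.12, 11.93 and 11.54 in MI, against 10.59, 11.33, 10.59, 10.94 and 10.51 in sham. The male groups did not overlap, and in females 1 sham array (11.33, position F) lay above the lowest MI array (11.12). Arpc5 rose 1.68-fold in males (log2 0.75, SE 0.155, adjusted p = 0.00232) and 1.75-fold in females (log2 0.81, SE 0.155, adjusted p = 5.42e-04). By ILMN_1244135, which ranged from 6.80 to 7.38 in male MI against 5.67 to 6.63 in male sham and from 7.06 to 8.32 in female MI against 6.31 to 6.97 in female sham, it rose 1.85-fold in males (adjusted p = 0.00550) and 1.91-fold in females (adjusted p = 0.00187). Without position F the log2 differences were 0.79 and 0.88 in males and 0.86 and 0.76 in females. Arpc5 probe ILMN_2673252 was detected on 0 of 20 arrays and not kept. The paralog Arpc5l was not called, with log2 differences of -0.21 in males (adjusted p = 0.400) and -0.40 in females (adjusted p = 0.0593).

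Arpc4 encodes a core subunit that, with ARPC2, forms the frame of the complex. ILMN_1249334 had levels of 8.73, 9.01, 9.20, 8.76 and 8.87 in male MI, against 8.46, 8.27, 8.41, 8.14 and 8.30 in male sham. Levels in females were 8.97, 9.01, 8.47, 9.30 and 8.68 in MI, against 8.13, 8.49, 8.63, 7.88 and 7.75 in sham. The groups overlapped in females only, where 2 sham arrays lay above the lowest MI array. Arpc4 rose by this probe 1.51-fold in males (log2 0.60, SE 0.165, adjusted p = 0.0172) and 1.64-fold in females (log2 0.71, SE 0.165, adjusted p = 0.00262), and by 0.62 in males and 0.69 in females without position F. The other probe, ILMN_1260027, was dim, averaging 5.39 ± 0.15 in male MI and 5.21 ± 0.07 in male sham, and 5.38 ± 0.20 in female MI and 5.13 ± 0.28 in female sham (SD, n = 5 each). It was not called (log2 0.18 in males, adjusted p = 0.334, and 0.25 in females, adjusted p = 0.141). Without position F it passed in females (log2 0.34, adjusted p = 0.0345, and 0.0794 with 75th percentile scaling) and not in males (log2 0.19, adjusted p = 0.252).

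Arpc2 encodes the partner of ARPC4 in the frame, and Actr3 the actin-related protein Arp3. Arpc2 had levels of 10.58, 10.76, 10.74, 10.85 and 10.75 in male MI, against 10.50, 10.13, 7.63, 10.47 and 10.36 in male sham. In females it had 10.84, 10.68, 10.58, 9.44 and 11.03 in MI, against 10.49, 7.40, 10.60, 10.42 and 10.14 in sham. The values of 7.63, 9.44 and 7.40 are the 3 position F arrays, and outside them the male groups did not overlap, while 1 female sham array (10.60) lay just above the lowest MI array (10.58). With all arrays Arpc2 was not called (log2 0.92 in males, 95% confidence interval -0.20 to 2.04, and 0.71 in females, interval -0.42 to 1.83). Without position F it rose by log2 0.37 in both sexes (adjusted p = 0.0335 in males and 0.0272 in females). That call was lost with 75th percentile scaling and no position F, at 0.17 in males (adjusted p = 0.371) and 0.38 in females (adjusted p = 0.0518).

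Actr3 had levels of 10.87, 10.81, 10.75, 10.79 and 10.71 in male MI, against 10.09, 9.93, 8.25, 10.37 and 10.14 in male sham. Female arrays gave 10.88, 10.79, 10.49, 10.12 and 10.96 in MI, against 10.41, 6.22, 10.50, 10.22 and 9.92 in sham. The male MI arrays lay close together and above all male sham arrays, and in females 10.12 (MI) and 6.22 (sham) are the position F arrays. Outside them 1 female sham array (10.50) lay just above the lowest MI array (10.49). With all arrays the differences were 1.03 in males (adjusted p = 0.227) and 1.19 in females (adjusted p = 0.119), neither of them called. Without position F Actr3 rose by log2 0.65 in males (adjusted p = 0.00136) and 0.51 in females (adjusted p = 0.00609). Of its 2 other probes, 1 was detected on 0 arrays and ILMN_1247803 on 3, of which 1 was male MI and 2 were female MI. The probe Tmsb4x ILMN_2521356 was likewise detected on 0 arrays.

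The MI differences were also read within chips. On chip 1, with 3 male MI and 3 male sham arrays, all 15 probes were higher after MI, with a median of 0.95. Male sham 3, in position F, is among these, and its low values enter the chip 1 differences of Arpc2 (1.27) and Actr3 (1.38). On chip 2, with 2 male MI and 2 male sham arrays, the median was 0.59 and all 15 differences were again above 0. On chip 3, with 4 female MI and 2 female sham arrays, 14 of 15 were above 0 with a median of 0.74, the exception being Arpc2 (-0.13), whose low MI array lies in position F of that chip. On chip 4, with 1 array of each female group, all 15 were above 0 with a median of 0.93. With the chip as a fixed block, 12 member probes rose in males and 11 in females. With position F left out as well, 14 rose in males and 15 in females. The shares of all kept probes called in these settings are not given here.

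The sexes were compared directly in the same fit. In female MI against male MI, 0 of 15 member probes were called, beside 0.145% of all kept probes, and 0 without position F (0.123%), and with all arrays 1 had an unadjusted p under 0.05. It was Arpc5 ILMN_1244135, with levels averaging 7.64 ± 0.46 in female MI and 7.06 ± 0.28 in male MI (SD, n = 5 each) and a difference of 0.58 (95% confidence interval 0.15 to 1.01, adjusted p = 0.219). Without female MI 3 it was called (0.73, adjusted p = 0.0466), and with array weights likewise (0.56, adjusted p = 0.0369). In female sham against male sham, 0 of 15 were called (0.107% of all kept probes), and 0 without position F (0.128%), and with all arrays 2 had an unadjusted p under 0.05. They were Arpc5 ILMN_1244135 at 0.54 (interval 0.11 to 0.97) and Pfn1 ILMN_2863965 at -0.44 (interval -0.79 to -0.09). For X-linked Tmsb4x, female MI minus male MI was -0.01 (interval -0.56 to 0.53) and female sham minus male sham -0.20 (interval -0.74 to 0.34). Without position F the differences of Tmsb4x were 0.10 (interval -0.13 to 0.34) and 0.09 (interval -0.15 to 0.34). Only chip 2 holds both sexes, and there the sham difference of the 15 probes ran from -1.94 to 0.31 with a median of -0.05, 1 of the 2 female arrays being in position F. Sex and chip cannot be told apart among the MI arrays.

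The response to MI itself was compared by the interaction, the female difference minus the male one. limma called 0 of 18683 probes (0.00%), with 1630 at an unadjusted p under 0.05, and 0 of the 15 members were among these. With array weights 1 probe of the whole table was called. The members' interactions ran from -0.21 for Arpc2 to 0.59 for Tmsb10 ILMN_3145331 (95% confidence interval -0.13 to 1.31). The half-widths of the intervals lay between 0.36 and 1.67, and between 0.34 and 0.67 without position F. These intervals are not adjusted for the number of probes tested. A call asks for more than an interval that leaves out 0, so differences larger than these widths can also go uncalled with 5 mice a group.

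Markers of other cells moved in the same arrays. Counts in this paragraph and the next are to be read against all kept probes. Of these 8.79% rose and 7.73% fell in males, and 14.8% rose and 15.6% fell in females. Without position F, 9.92% rose in males and 15.0% in females. Summed over 9 measured macrophage markers, the normalised linear level was 6349 to 8239 in male MI against 3393 to 4508 in male sham, and 5831 to 12600 in female MI against 3083 to 4919 in female sham. Of these 9 genes, 6 rose in males and 9 in females, and 8 and 9 without position F. Summed over 6 neutrophil markers the level was 818 to 1942 in male MI against 249 to 561 in male sham, and 990 to 2752 in female MI against 234 to 748 in female sham, with 5 of 6 rising in males and 6 of 6 in females. Mmp8, Ngp and Ltf, which mark neutrophil granules, were not detected on any array. Of 9 fibroblast markers 5 rose in males and 4 in females, with sums of 14540 to 16280 in male MI against 7037 to 13470 in male sham and of 11880 to 18050 in female MI against 5184 to 15670 in female sham. Postn, a marker of activated fibroblasts, was not detected on any array. For this and the other undetected markers, the lack of a signal does not show that the RNA was absent. Arpc5, Actr3 and Tmsb4x each had a probe detected on 0 arrays beside another detected on all 20.

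All 6 measured proliferation genes rose in both sexes, with sums of 762 to 1177 in male MI against 213 to 305 in male sham and of 833 to 1716 in female MI against 211 to 391 in female sham. Of 9 cardiomyocyte markers 0 were called in males and 2, Tnni3 and Ttn, fell in females, a share near that of all kept probes that fell (15.6%). Ttn had an adjusted p of 0.0368 in females, and 0.170 without position F, where Ryr2 was called lower instead, at -0.42 with adjusted p = 0.0122. The cardiomyocyte sums were 79800 to 82280 in male MI against 75620 to 87430 in male sham, and 78920 to 87590 in female MI against 82800 to 85700 in female sham. Of 7 endothelial markers 0 were called in males and 1, Esam, rose in females, a share near that of all kept probes (14.8%), with sums of 7221 to 7939 in male MI against 7066 to 7876 in male sham and of 6932 to 8448 in female MI against 5969 to 7770 in female sham. Among 6 smooth muscle and pericyte markers Tagln rose in males, and Tagln and Acta2 rose while Myh11 and Rgs5 fell in females. Their sums were 10540 to 13200 in male MI against 9029 to 15380 in male sham, and 12200 to 17810 in female MI against 9863 to 15150 in female sham. Cnn1, a smooth muscle calponin, was not detected on any array. Cd79b was the 1 lymphocyte marker measured of 9 listed and was not called, at 24.3 to 39.6 in male MI against 25.1 to 28.5 in male sham and 28.2 to 55.8 in female MI against 26.8 to 30.2 in female sham. Cd3e, Cd3d, Cd2, Ms4a1 and Ncr1 were not detected on any array. The part of these markers in the result for the actin genes was not tested.

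Other genes of actin dynamics were counted from lists by role, to be read against all kept probes, of which 8.79% rose and 7.73% fell in males, and 14.8% rose and 15.6% fell in females. Of 19 nucleation promoting factors, which switch the Arp2/3 complex on, 6 rose and 0 fell in males, and 5 rose and 1 fell in females (medians 0.23 in males and 0.24 in females). Without position F, 5 rose and 1 fell in males, and 7 rose and 1 fell in females. Was, the blood cell activator mutated in Wiskott-Aldrich syndrome, rose by log2 0.80 in males (adjusted p = 0.00211) and 1.21 in females (adjusted p = 1.62e-05). Hcls1, the blood cell relative of cortactin, rose by 0.58 in males and 1.11 in females, and Nckap1l, the blood cell form of a WAVE complex subunit, by 0.85 in males and 1.23 in females. These are genes of leukocytes, and the macrophage and neutrophil sums above were higher on the same arrays. The part of leukocytes in the rise of these genes was not tested. Wasl, the widely expressed activator, was not called (0.03 in males, adjusted p = 0.861, and -0.16 in females, adjusted p = 0.178), and Cyfip2, of the WAVE complex, fell by 0.85 in females (adjusted p = 0.0167). In males its difference was -0.61 (adjusted p = 0.115), and it fell by 0.64 without position F (adjusted p = 0.00330).

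Of 7 inhibitors of branching 3 rose in males and 4 in females, and 0 fell (medians 0.13 in males and 0.61 in females). Coro1a, the leukocyte coronin, rose by log2 1.14 in males (adjusted p = 3.75e-04) and 1.55 in females (adjusted p = 5.17e-06). Coro1c, a coronin found in many tissues, rose by 0.72 in males and 0.80 in females, and Gmfg, which removes branches, by 0.53 in males and 0.76 in females. Of 14 genes that recycle monomers 3 rose in males and 5 in females, and 0 fell (medians 0.23 in males and 0.20 in females). Cofilin-1 (Cfl1), which severs filaments, rose by 0.59 in males and 0.67 in females, and Cap1, which recharges monomers, by 0.76 in males and 1.04 in females. Wdr1, the partner of cofilin, rose by 0.38 in males and 0.39 in females, and Limk1, a kinase that inactivates cofilin, rose by 0.59 in females and had a difference of 0.28 in males (adjusted p = 0.158), with an interaction that was not called. The counts of both lists were as large without position F.

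Of 14 measured capping and severing genes, 3 rose and 1 fell in males, and 2 rose and 3 fell in females (medians -0.03 in males and -0.14 in females). The female shares are near those of all kept probes (14.8% rose and 15.6% fell), and the count says nothing particular about the list. Without position F, 2 rose and 1 fell in males, and 1 rose and 3 fell in females. Capg, the capping protein of macrophages, rose by log2 1.15 in males (adjusted p = 0.00155) and 1.59 in females (adjusted p = 2.60e-05). Eps8, which caps filaments, rose by 0.54 in males and was not called in females (0.32). Scin, which severs them, rose by 0.66 in males (adjusted p = 0.0439, and 0.0696 without position F) and was not called in females (-0.05), and neither interaction was called. The capping subunit gene Capza1 rose by 0.68 in females (adjusted p = 0.0157, and 0.0601 without position F) and had a difference of 0.54 in males (adjusted p = 0.0772), with an interaction that was not called. Tmod4, a tropomodulin of striated muscle that caps the slow ends of thin filaments, fell by 0.85 in males and by 1.07 in females (adjusted p = 9.54e-04 and 3.88e-05). Gsn, the severing protein gelsolin, fell by 1.34 in females (adjusted p = 0.00124) and had a difference of -0.03 in males, with an interaction that was not called. Capzb, the other capping subunit gene, fell by 0.26 in females (adjusted p = 0.0416, and 0.0572 without position F) and had a difference of -0.16 in males (adjusted p = 0.269), with an interaction that was not called.

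Of 13 formins and other nucleators, which build unbranched filaments, 1 rose and 0 fell in males, and 1 rose and 1 fell in females (medians -0.02 in males and 0.18 in females). The shares that rose are no higher than those of all kept probes (8.79% in males and 14.8% in females). Without position F, 2 rose and 2 fell in males, and 1 rose and 4 fell in females. Diaph3, a formin, rose by log2 0.70 in males (adjusted p = 0.00297) and 1.28 in females (adjusted p = 3.82e-06), and Lmod2, a nucleator of cardiac thin filaments, fell by 0.55 in females (adjusted p = 0.0450) and had a difference of -0.08 in males (adjusted p = 0.825), with an interaction that was not called. Of 5 actin genes, 1 rose in males and 4 in females (medians 0.19 in males and 0.99 in females), with the same counts without position F. Actb, cytoplasmic beta-actin, rose by 0.93 in males (adjusted p = 0.00120) and 1.11 in females (adjusted p = 8.17e-05), while Actc1, cardiac actin, was not called (0.03 in males and -0.08 in females). Acta2 and Actg2, the smooth muscle actins, rose by 0.65 and 0.99 in females and had differences of 0.19 and 0.37 in males. Acta1, the skeletal muscle actin, rose by 1.15 in females (adjusted p = 0.00806) and had a difference of -0.12 in males. None of the 5 interactions was called. Of 7 other thymosins and profilins, Pfn2 and Pfn4 were measured and 0 were called (Pfn2 0.02 in males, adjusted p = 0.965, and -0.64 in females, adjusted p = 0.0568, and Pfn4 0.02 in males and -0.32 in females).

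**Figure D4:**
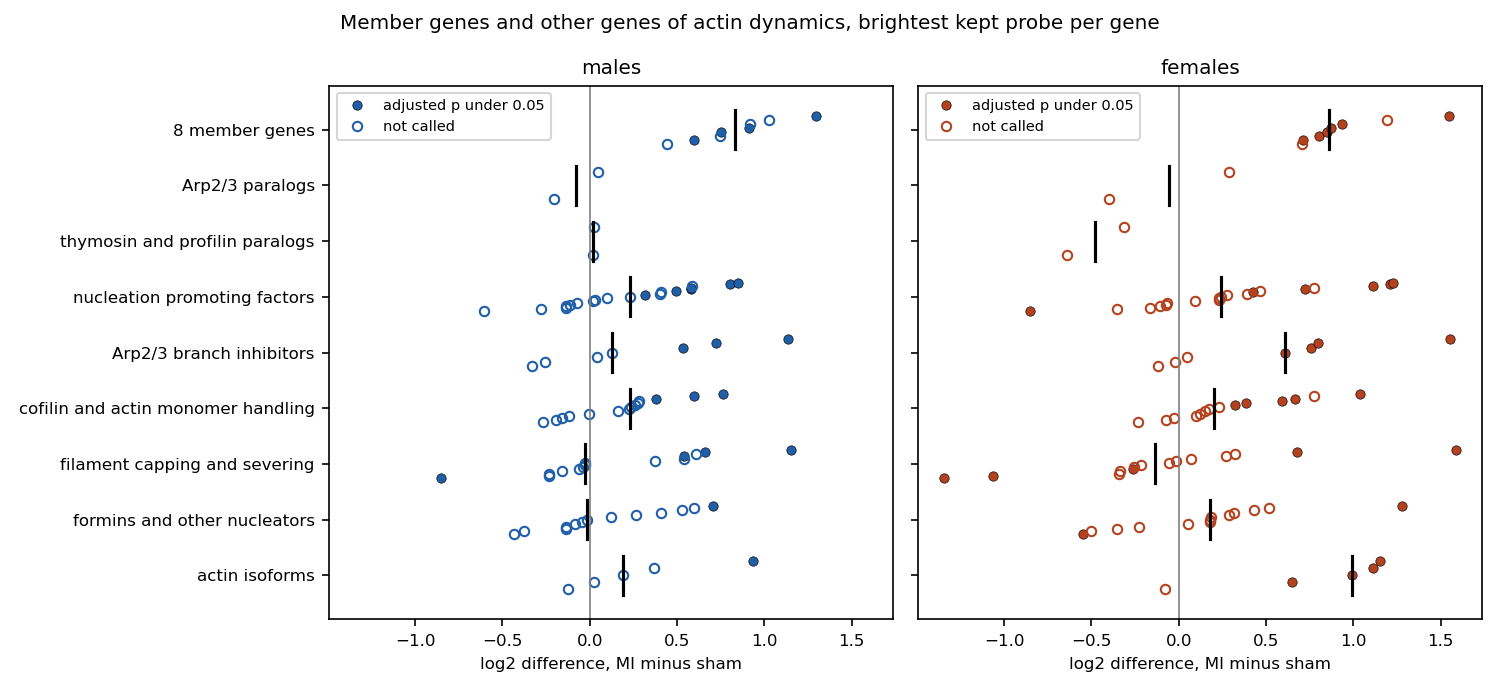
Log2 difference of MI minus sham for the 8 member genes and the other actin genes by list, 1 probe per gene, in males (left) and females (right); filled points passed an adjusted p under 0.05, open points did not, and black bars are medians. The 8 member genes, chosen with earlier results known, all lie above 0. Every other list holds values on both sides of 0 in each sex, except the thymosin and profilin paralogs.

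The 8 genes nearest to the mean profile of the members were found by the root mean square difference over arrays of log2 levels centred on each gene's mean. Over 20 arrays they were Sdcbp (0.18), Sec16b (0.19), Csgalnact1 (0.20), Vkorc1, Lgals9, Lyz1, Cyb5r3 and Rab5c (0.22). Sdcbp encodes syntenin, a membrane scaffold, and rose by log2 0.80 in males and 0.86 in females. Over the 17 arrays outside position F they were Bin1 (0.11), Slc30a7, Arhgdib, Ctsc, Nsd2, Vmp1, Eif4e2 and Parvg (0.13). Arhgdib rose by 0.76 in males and 0.95 in females with all arrays, and Ctsc, the lysosomal protease cathepsin C, by 0.95 in males and 0.81 in females. The lists over 20 and over 17 arrays share 0 genes. Both were picked by closeness to a profile that is higher in MI than in sham, so the rises of their genes follow from the choice. The members themselves lay between 0.25 (Tmsb4x) and 0.73 (Actr3) from their own mean profile over 20 arrays.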

How the data were processed

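RNA of 20 mice was hybridised to Illumina BeadChips, 1 array per mouse, as biotinylated cRNA per the labels' protocols. The authors deposited a linear bead intensity per probe, not normalised, and a detection p-value beside it, per the file headers. They also deposited a matrix of log2 values, used as an alternative, whose 20 columns each matched best the array of the same label (lowest r 0.997). Its column medians were 5.14 to 5.15, and it differed from quantile-normalised log2 intensities with no background correction by a median of 1.09e-04. Scanner software is not given in the sources used here.

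Intensities were processed here with limma 3.58.1 in R 4.3.3: neqc (normexp with negative controls inferred from detection p-values, offset 16, quantile normalisation, log2). Of 45281 probes 34885 had 1 symbol in the platform annotation, 18 several and 10378 none listed; updating changed 0 symbols. The 18683 probes with a detection p under 0.01 on 5 or more arrays were tested. One limma model with a mean per group (16 residual degrees of freedom, no covariate) gave 5 comparisons, adjusted by Benjamini-Hochberg over all kept probes, and every adjusted p is from it unless another setting is named. The spread among mice within groups was pooled over all groups, so arrays of 1 sex also enter the adjusted p of the other. The number of arrays limits the precision. The closest arrays differed by a median of 0.126 log2 units, and each counts as 1 sample. The fit was tested on simulated data.

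Members and gene lists were chosen with earlier results of these data known, so no list was tested. In a list the brightest kept probe stands for a gene. All member probes are named, with up to 3 called genes per list and direction in each sex, paralogs, and the 8 genes of nearest profile; Wasl, Actc1, Acta1 and the called markers (with or without position F) were named after their values were seen. Alternatives were other background corrections, scalings, filters, chip or replicate blocks, single chips, array weights and leaving out arrays; those combining position F with the chip or with scaling were chosen after seeing the data. Binding of a probe to RNA of a related gene was not tested. One further list of actin regulators is not reported here.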

Additional observations from a re-analysis of the deposited data

Results flagged for a closer look

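In 7 of 60 groups of 5 arrays (15 member probes in 4 groups), the gap between an extreme array and its nearest neighbour took up more than 0.71 of the group's range, where chance gives about 1 in 20 groups. Of these, 6 are arrays in position F. Arpc2 had 9.44 in female MI 4 (nearest 10.58), 7.63 in male sham 3 (nearest 10.13) and 7.40 in female sham 2 (nearest 10.14). Actr3 had 8.25 in male sham 3 (nearest 9.93) and 6.22 in female sham 2 (nearest 9.92). Tmsb4x had 10.69 in female sham 2 (nearest 12.39). The remaining one is high and outside position F, with Arpc5 ILMN_2792809 at 11.66 in male MI 3 (nearest 11.38).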

How the results depend on the processing

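Over 41 other settings 1 of 1154 MI differences of member probes was below 0 (Arpc2 within chip 3, -0.13). Leaving out 1 array each gave 8 to 12 called member probes in males and 12 to 13 in females. Over the whole table it gave 2134 to 3555 called probes in males and 4658 to 6275 in females. In female MI against male MI it gave 0 to 1 called member probes. The member medians were 0.77 to 0.96 in males and 0.80 to 0.95 in females. The 1 call between the sexes was Arpc5 ILMN_1244135 without female MI 3 (0.73, adjusted p = 0.0466), and array weights called 1 as well (0.56, adjusted p = 0.0369). Without female sham 2, in position F, male Actr3 (adjusted p = 0.0116), male Tmsb4x (adjusted p = 6.48e-04) and female Arpc4 ILMN_1260027 (adjusted p = 0.0155) passed. Male Pfn1 ILMN_2673211 passed without female MI 5 (adjusted p = 0.0457), and male Tmsb4x without female MI 4 (adjusted p = 0.0484) or female sham 3 (adjusted p = 0.0427). With 1 probe per gene 5 of 8 genes were called in males and 6 of 8 in females. The share of all genes called in that setting is not given here. Within chip 2 the male count was 6 and the median 0.59, and within chip 3 the female count was 7, with fewer arrays in each. The male median was 0.74 with a neqc offset of 50 and 0.57 with 75th percentile scaling and no position F, with 11 member probes called in males and 13 in females (0.75 with that scaling and all arrays). Without position F that scaling called 1532 probes of the whole table higher in males and 2487 in females. With all arrays it called 1305 probes higher and 2669 lower in males (32.8% higher). Quantile normalisation called 1642 and 1445 (53.2%). The male median over all probes was -0.12 with that scaling and -0.04 with quantile normalisation. That scaling with all arrays called 9 member probes in males, Pfn1 ILMN_2863965 not among them (adjusted p = 0.0868). The cause of these moves was not tested.

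Probes called over the whole table were 5307 in males with array weights and 806 within chip 2 (3087 with all arrays), and 1304 in females within chip 3 (5689). In female MI against male MI they were 2271 with array weights, 7 with the chip as a block, with or without position F, 14 among probes detected on all arrays, and 16 to 775 with 1 array left out, 775 without female MI 3 (27 with all arrays). In female sham against male sham they were 43 with array weights, 60 with a term for position F, 12 with only those groups fitted, 11 with the chip as a block, 8 with it and no position F, 6 among probes detected on all arrays, 1 within chip 2, and 13 to 74 with 1 array left out, 74 without male sham 4 and 36 without female sham 2 (20 with all arrays). Female Tmsb4x had an adjusted p of 0.054 with only the female groups fitted and 0.238 within chip 3. With only the male groups fitted, male Tmsb4x (adjusted p = 5.56e-04), Actr3 (adjusted p = 0.0319) and Pfn1 ILMN_2673211 (adjusted p = 0.0274) passed. Their log2 differences were the same as in the main fit.

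The replicate numbers used here follow the order of the arrays, as the sample titles give none, and were not read as pairs of mice. Deviations of same-numbered arrays correlated at -0.34 to 0.14 in males (over 0.1 in 2 of 5 pairs) and at -0.07 to 0.33 in females (3 of 5). These correlations cannot show whether mice were paired, since same-numbered arrays can share a chip. With the replicate number as a block, 9 member probes were called in males and 12 in females. Pfn1 ILMN_2863965 in males was not (adjusted p = 0.0878), and no other member call in these comparisons changed. The share of all kept probes called in that setting is not given here. With no filter on dim probes, so that more probes were adjusted for, the male calls of Tmsb10 ILMN_1225332 (adjusted p = 0.058) and Pfn1 ILMN_2863965 (adjusted p = 0.0983) ended at the same log2 differences.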
